A study of Mus musculus with 5 samples.

Results

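NF-kB transcription factors and the genes that restrain them were examined in CD4 T cells sorted from injured mouse kidneys. The 10 genes were chosen by symbol from the 31053 genes in the count matrices: the subunit genes Nfkb1, Nfkb2, Rela, Relb and Rel, the inhibitor genes Nfkbia, Nfkbid, Nfkbiz and Tnfaip3, and the adaptor gene Myd88. Raw counts of unique molecular identifiers (UMIs, each standing for 1 captured mRNA molecule) were read from 5 single-cell 3' libraries of mice aged 10 weeks after unilateral ischemia-reperfusion injury of the kidney. There were 3 libraries from Il1rl1fl/fl Foxp3YFP-Cre mice, called knockout here, and 2 from Il1rl1fl/fl mice, called control. Both groups carry floxed Il1rl1, the gene of the interleukin-33 receptor ST2. The Cre recombinase is driven by Foxp3, the gene of the factor that defines regulatory T cells (Tregs), and only the knockout mice carry this Cre allele, so its own effect and that of the deletion cannot be told apart. Nothing in the labels ties a library to an animal of its own, so every p-value measures the spread between libraries, which may be technical.

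NF-kB factors are dimers of REL-domain proteins that wait in the cytoplasm, held by inhibitors of the I-kappa-B family. Signals from antigen, cytokine and Toll-like receptors activate kinases that destroy the inhibitor or trim the precursor proteins p105 and p100, and the dimers then enter the nucleus. Several of the genes they switch on encode their own inhibitors, which closes a feedback loop. ST2 belongs to the receptors that signal through MyD88 to NF-kB, and in Tregs c-Rel and RelA are known to be needed for development and for the mature suppressive state.

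Nfkb1 (ENSMUSG00000028163, chr3:135584655-135691547) encodes p105 and its product p50, and Nfkb2 (ENSMUSG00000025225, chr19:46304320-46312385) encodes p100 and p52. Rela (ENSMUSG00000024927, chr19:5637483-5648130), Relb (ENSMUSG00000002983, chr7:19606217-19629438) and Rel (ENSMUSG00000020275, chr11:23736847-23770970) encode the subunits with activation domains, RelA, RelB and c-Rel. Nfkbia (ENSMUSG00000021025, chr12:55489410-55492647) encodes I-kappa-B alpha, the classical cytoplasmic inhibitor. Nfkbid (ENSMUSG00000036931, chr7:30421732-30428746) and Nfkbiz (ENSMUSG00000035356, chr16:55811375-55838899) encode nuclear relatives that bind p50 on DNA and modulate transcription. Tnfaip3 (ENSMUSG00000019850, chr10:19000910-19015657) encodes A20, a ubiquitin-editing enzyme that shuts the pathway off upstream. Myd88 (ENSMUSG00000032508, chr9:119335934-119341411) encodes the adaptor of the interleukin-1 and Toll-like receptor family. Gene positions are those of GENCODE M21 on GRCm38, the build of the submitters' mm10 alignment.

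The promoter windows of Nfkbia, Tnfaip3 and Nfkb2 are shown because these inhibitor and precursor genes are textbook targets of the factors they restrain. Each window runs from 250 bases before to 50 bases after the start of a RefSeq transcript (GRCm38.p6), written in the direction of transcription, with matches to the kappa B consensus on either strand in capitals. The windows are chr12:55492598-55492897 on the minus strand for Nfkbia, chr10:19015361-19015660 on the minus strand for Tnfaip3 and chr19:46304487-46304786 on the plus strand for Nfkb2.
Nfkbia: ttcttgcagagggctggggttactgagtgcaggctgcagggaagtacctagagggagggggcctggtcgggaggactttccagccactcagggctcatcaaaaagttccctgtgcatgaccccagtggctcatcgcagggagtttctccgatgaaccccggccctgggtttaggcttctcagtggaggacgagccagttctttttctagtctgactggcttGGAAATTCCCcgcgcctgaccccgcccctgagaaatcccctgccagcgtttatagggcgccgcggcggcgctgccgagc
Tnfaip3: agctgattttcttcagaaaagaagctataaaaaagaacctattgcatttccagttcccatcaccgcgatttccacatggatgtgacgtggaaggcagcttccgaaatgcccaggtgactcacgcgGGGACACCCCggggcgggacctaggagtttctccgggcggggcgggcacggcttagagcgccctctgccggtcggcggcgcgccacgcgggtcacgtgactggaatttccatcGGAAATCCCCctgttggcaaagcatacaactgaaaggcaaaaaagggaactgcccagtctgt
Nfkb2: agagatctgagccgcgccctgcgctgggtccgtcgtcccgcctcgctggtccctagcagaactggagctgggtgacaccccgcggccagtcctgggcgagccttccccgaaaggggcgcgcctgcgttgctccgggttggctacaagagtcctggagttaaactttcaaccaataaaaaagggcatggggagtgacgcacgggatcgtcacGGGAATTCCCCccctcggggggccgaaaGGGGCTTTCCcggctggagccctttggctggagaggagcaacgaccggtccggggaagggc
The Nfkbia match begins 29 bases before the transcript start. In the Tnfaip3 window the matches begin 125 and 12 bases before the start. In the Nfkb2 window 3 matches begin 39, 38 and 11 bases before the start, and the first 2 of these overlap. Of the 10 genes, 7 had RefSeq windows (12 windows), and a match lay in a window of 5 of them: Nfkb2, Rel, Nfkbia, Nfkbid and Tnfaip3. The windows of Rela and Myd88 held none. Over the 27025 genes of the promoter table, 9.55% had a match in a window of this length. A match describes these letters and does not show that a factor binds there.

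The libraries held 4580, 10899 and 5580 barcodes in the knockout group and 10146 and 9573 in the control group, with 31104939 to 60421178 UMIs per knockout library and 152275841 and 46383793 UMIs in the control libraries. After cells with under 500 genes or at least 10% mitochondrial UMIs were left out, 38417 of 40778 cells stayed. Pairs of libraries shared 2 to 39 barcodes. Cells with at least 1 Foxp3 UMI were called Foxp3+ (271, 718 and 313 cells in the knockout libraries, and 747 and 553 in the control libraries), and these were split by an Il1rl1 UMI. The Foxp3+ Il1rl1+ gate held 139, 153 and 69 knockout and 227 and 95 control cells. The Foxp3+ Il1rl1- gate held 132, 565 and 244 knockout and 520 and 458 control cells. Only in the first knockout library were Il1rl1+ cells the larger part, so Foxp3+ sums pool unlike mixtures. Cells with no Foxp3 UMI and at least 1 Cd4 UMI were called Foxp3- Cd4+ (2881, 6492 and 3140 cells in the knockout libraries, and 6950 and 5250 in the control libraries). A macrophage gate took cells with at least 5 UMIs of the complement genes C1qa, C1qb and C1qc together (350, 844 and 493 cells in the knockout libraries, and 586 and 751 in the control libraries), and its cells were kept out of the T cell gates. In droplet data a missing UMI does not show a missing transcript, so the gates without Foxp3 or Il1rl1 also hold cells in which these were merely not sampled.

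Levels are in CPM, the UMI count of a gene in a gate scaled to the same total number of UMIs in every library and gate. Il1rl1, the targeted gene, had 151, 61.9 and 68.1 CPM in the knockout libraries, against 76.2 and 62.0 in the control libraries among Foxp3+ cells. It was not lower in the knockout libraries, where the first stood highest, and the groups overlapped (log2 fold change 0.40, SE 0.34, adjusted p = 1.00 by edgeR). In Foxp3- Cd4+ cells it had 59.3, 37.1 and 22.8 CPM in the knockout libraries, against 8.81 and 8.43 in the control libraries, with no overlap (log2 fold change 2.18, SE 0.38, adjusted p = 0.688 by edgeR). Reads of 3' libraries come from the end of the transcript and need not cover the deleted exons, so these values do not check the deletion. Of the Treg markers that the gate did not use, Il2ra (2.91), Ikzf2 (3.02), Ctla4 (2.81) and Tnfrsf18 (1.02) were each higher in Foxp3+ than in Foxp3- Cd4+ cells of the same library, as log2 fold changes by edgeR, in 5 of 5 libraries.

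These levels are not scaled by transcript length and 3' capture differs between genes, so levels are compared for the same gene between gates or libraries and not between genes. Rela stayed in a narrow band, at 42.3 to 45.4 CPM over the 5 libraries in Foxp3+ cells, 43.6 to 47.2 in Foxp3- Cd4+ cells and 45.7 to 53.5 in the macrophage gate. Nfkb1 was at 449 to 520.4 in Foxp3+ cells, 363 to 442 in Foxp3- Cd4+ cells and 369.7 to 435 in the macrophage gate. The Foxp3+ range of Nfkb1 lay above both others. Nfkbia was at 368 to 506 in Foxp3+ cells, 291 to 379 in Foxp3- Cd4+ cells and 273 to 328 in the macrophage gate, and the T cell range overlapped both others. Nfkbiz had 69.7 to 129 in Foxp3+ cells, 57.0 to 89.5 in Foxp3- Cd4+ cells and 82.3 to 133 in the macrophage gate, with all 3 ranges overlapping. Libraries differed within each gate, and comparisons between gates were made within libraries.

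**Figure D1:**
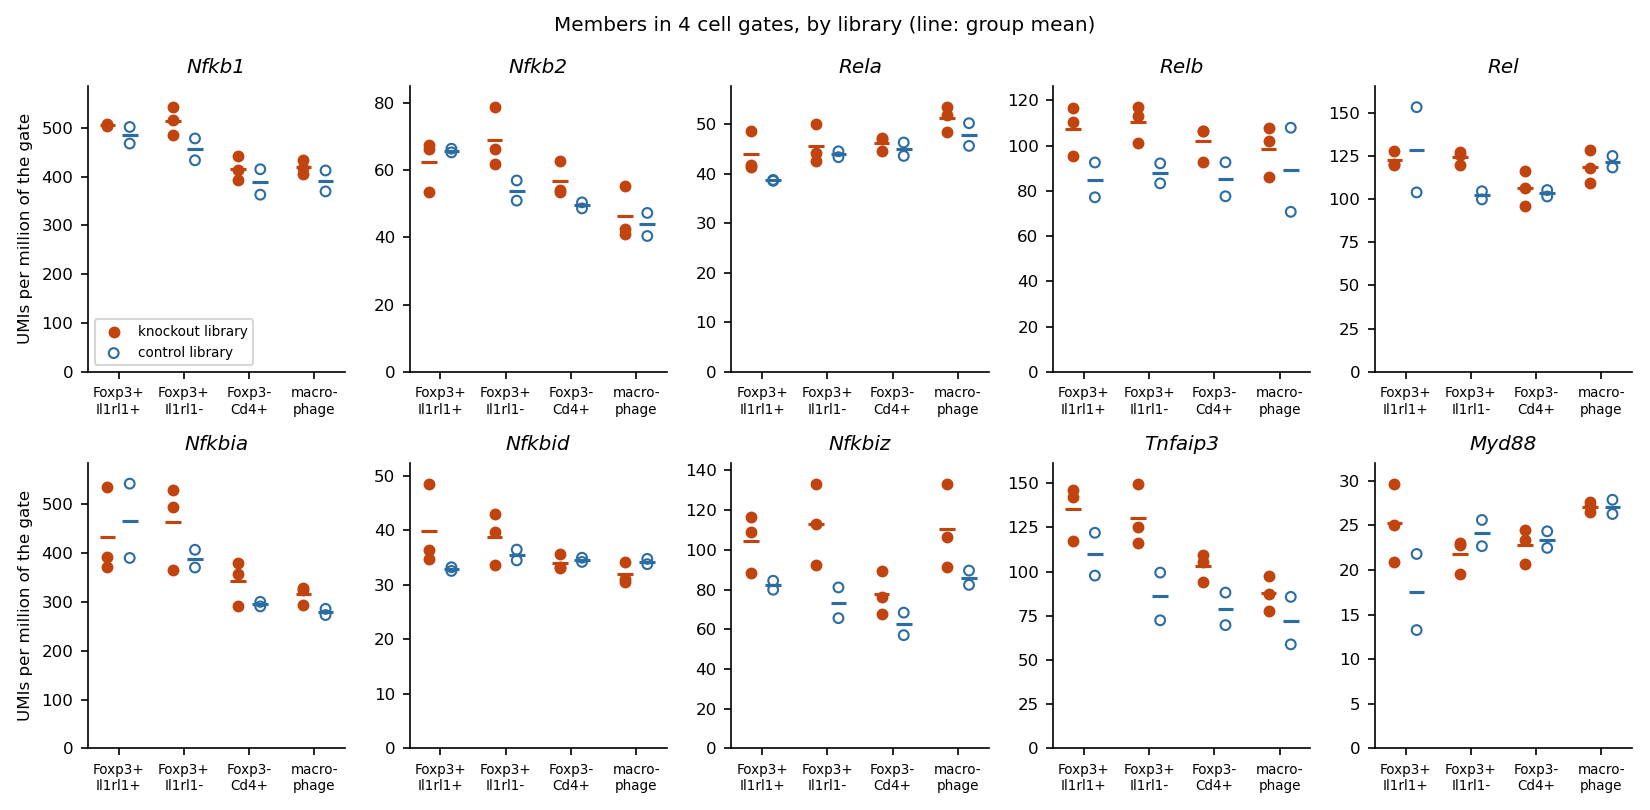
Levels of the 10 genes in CPM (vertical axis, from 0) in 4 cell gates, with 1 point per library (filled, 3 knockout; open, 2 control) and a line at each group mean. The group means of Nfkb1, Nfkbia, Nfkbiz and Tnfaip3 are higher in both Foxp3+ gates than in Foxp3- Cd4+ cells, and every Nfkbiz and Relb value of the knockout libraries lies above the control values in both Foxp3+ gates.

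Foxp3+ cells held more transcript of 3 of the 4 inhibitor genes and of Nfkb1 than Foxp3- Cd4+ cells of the same library. Nfkbia, Nfkbiz, Tnfaip3 and Nfkb1 passed the test, each higher in 5 of 5 libraries, by 1.16 to 1.27 times. None of the 10 was lower at the threshold. The test was edgeR's quasi-likelihood test on UMI sums per library and gate, with the library as a term and Benjamini-Hochberg adjustment over all 13441 genes tested (threshold 0.05). By the same test 10.4% of all genes were higher in Foxp3+ cells and 8.6% lower. The 4 of 10 higher are above that share, while with 10 genes 0 lower is near what 8.6% gives. These shares cover tested genes of all levels, and genes with more UMIs are called more readily.

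Nfkbia, which encodes the inhibitor that retains dimers in the cytoplasm, had 449, 368 and 506 CPM in the knockout libraries and 378 and 437 in the control libraries among Foxp3+ cells. Among Foxp3- Cd4+ cells it had 358, 291 and 379 CPM in the knockout libraries and 291 and 300.4 in the control libraries. Each library was higher on its Foxp3+ side, although the second knockout library and the first control library stood low in both gates (log2 fold change 0.34, SE 0.04, adjusted p = 1.8e-04). Nfkbiz, whose product I-kappa-B zeta acts in the nucleus, had 111, 91.3 and 129 CPM in the knockout libraries and 80.6 and 69.7 in the control libraries among Foxp3+ cells. Its values in Foxp3- Cd4+ cells were 76.1, 67.6 and 89.5 CPM in the knockout libraries and 68.4 and 57.0 in the control libraries. The fit gave log2 fold change 0.34, SE 0.05, adjusted p = 0.00128, and within the knockout libraries the plain log2 ratios of 0.43 to 0.54 lay above the 0.24 and 0.29 of the control libraries.

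Tnfaip3, the gene of A20, had 132, 123 and 149 CPM in the knockout libraries and 107 and 78.0 in the control libraries among Foxp3+ cells. Among Foxp3- Cd4+ cells it had 109, 94.0 and 105 CPM in the knockout libraries and 88.1 and 69.7 in the control libraries. The second control library was lowest in both gates, and the gate difference held within it (log2 fold change 0.27, SE 0.05, adjusted p = 0.00355). Nfkbid, the other nuclear inhibitor, ran from 34.1 to 44.9 CPM in Foxp3+ cells and from 33.2 to 35.7 in Foxp3- Cd4+ cells, and it did not pass (log2 fold change 0.07, SE 0.07, adjusted p = 0.556). Its ratio was positive in 4 of 5 libraries.

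Among the subunits, Nfkb1 had 520.4, 490.3 and 513 CPM in the knockout libraries and 474 and 449 in the control libraries in Foxp3+ cells. In Foxp3- Cd4+ cells it had 442, 392 and 413 CPM in the knockout libraries and 415 and 363 in the control libraries. All Foxp3+ values exceeded all Foxp3- Cd4+ values (log2 fold change 0.22, SE 0.04, adjusted p = 0.00186). Nfkb2, the precursor of the non-canonical arm, was higher in 5 of 5 libraries but missed the threshold (log2 fold change 0.14, SE 0.05, adjusted p = 0.0681). Rela had a log2 fold change of -0.13 (SE 0.05, adjusted p = 0.114), with 1 of 5 libraries higher. Rel stood at 0.09 (SE 0.05) and Relb at -0.0026 (SE 0.04) on the log2 scale. Myd88 was at -0.04 (SE 0.08, adjusted p = 0.808). Of the 5 subunit genes, 1 passed the threshold.

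**Figure D2:**
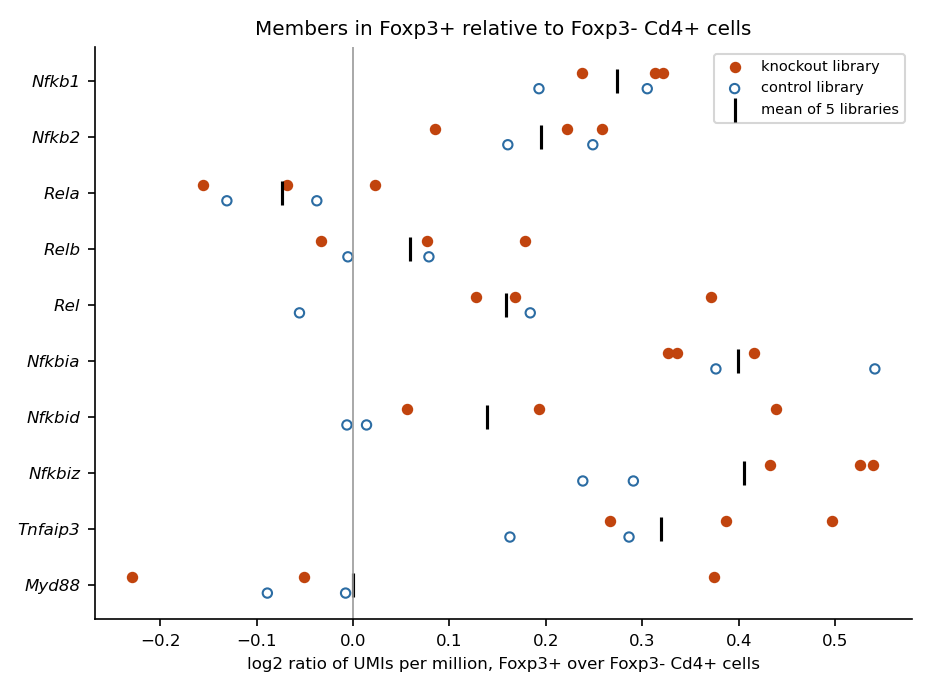
Log2 ratio of CPM in Foxp3+ over Foxp3- Cd4+ cells of the same library (horizontal axis) for each gene, with 1 point per library (filled, knockout; open, control) and a bar at the mean of 5 libraries. All 5 points of Nfkb1, Nfkb2, Nfkbia, Nfkbiz and Tnfaip3 lie above 0, and those of Rela, Relb and Myd88 lie on both sides.

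The 4 calls were also made when each library in turn was left out. They were made as well in cells of at least 2000 UMIs thinned to 2000 before gating, with shallower cells left out. Among control libraries alone Nfkb1 and Nfkbia passed, and Nfkbiz (log2 fold change 0.20, adjusted p = 0.0503) and Tnfaip3 (0.18, adjusted p = 0.083) did not, by edgeR with 2 libraries. Genes that respond to tissue digestion moved in part with them: of 11 such genes, Fos, Jun, Jund and Dusp1 were higher and Btg2 lower in Foxp3+ cells. Their summed level was 712 to 932 CPM in Foxp3+ cells and 615 to 793 in Foxp3- Cd4+ cells. The part of digestion in the NF-kB result was not tested. Foxp3+ cells were deeper in every library, at median totals of 10867, 5724 and 5118 UMIs in knockout and 15899 and 5035 in control libraries. Foxp3- Cd4+ cells had medians of 7864, 4711 and 4425 in knockout and 14048 and 4295 in control libraries. Macrophage transcripts were low in both gates, at 229 to 589 and 167 to 380.2 CPM summed over 11 markers in Foxp3+ and Foxp3- Cd4+ cells, and 1 of the 11, Apoe, was higher in Foxp3+ cells. The 11 include C1qa, C1qb and C1qc, by which macrophage-gate cells were kept out, so the gates partly set these low sums. With cells of mixed type left out, 4 of the 10 genes were called as well.

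Other genes of the pathway passed the same comparison, most of them higher in Foxp3+ cells. Beside the lists below, 10.4% of all genes were higher and 8.6% lower. Of 18 receptor genes tested, 7 were higher and 1 lower in Foxp3+ cells (median log2 fold change 0.49, against -0.016 over all genes). Tnfrsf18 (GITR, 1.02), Cd27 (0.89) and Tnfrsf4 (OX40, 1.78), co-stimulatory receptors of the TNF receptor family, had the smallest p-values, and Il18rap, a chain of the interleukin-18 receptor, was lower (-0.39). Tnfrsf18 is also one of the Treg markers. Among 25 upstream signalling genes 6 were higher and 2 lower, with a median of 0.037. Malt1, the protease of the antigen receptor branch, was higher (0.59), as were Irak2, a kinase of the Myd88 branch (0.43), and Birc2, the ubiquitin ligase cIAP1 (0.37). Map3k14, the NIK kinase that starts the non-canonical arm, was lower (-0.24).

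Of 16 further inhibitor genes, 4 were higher and 1 lower, with a median log2 fold change of 0.12, beside the same 10.4% and 8.6% of all genes. Bcl3, a nuclear I-kappa-B relative (0.61), N4bp1, an inhibitor of signalling (0.44), and Sigirr, a negative regulator of interleukin-1 family receptors (0.36), were higher. Of 28 known target genes tested, 10 were higher and 4 lower, with a median of 0.11. Il2ra, which encodes the interleukin-2 receptor alpha chain and is a Treg marker, led with 2.91, followed by the stress gene Gadd45b (1.00) and the endocytic gene Ehd1 (0.77). The targets that were lower included the chemokine gene Ccl5 (-0.89) and the effector cytokine genes Tnf (-0.64) and Csf2 (-1.71), each lower in 5 of 5 libraries. Target genes went both ways.

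**Figure D3:**
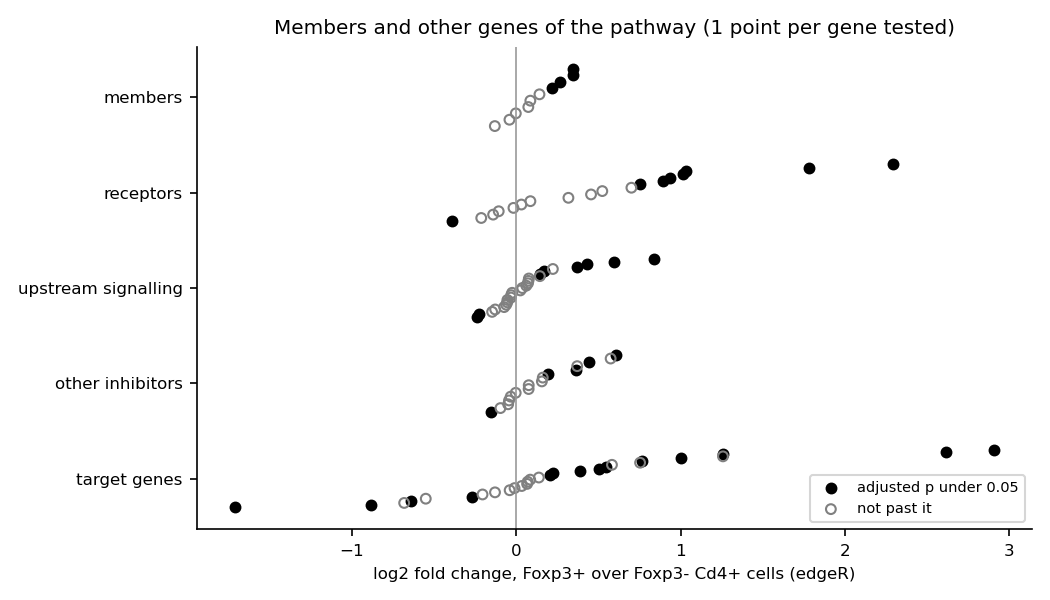
Log2 fold change of Foxp3+ over Foxp3- Cd4+ cells (horizontal axis) for each tested gene of 5 groups of the pathway, filled where the adjusted p of edgeR was under 0.05. Among the 10 genes 4 are filled and all of these lie above 0, while the target genes have filled points on both sides, 10 higher and 4 lower.

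Within Foxp3+ cells, no gene of the 10 passed between those with an Il1rl1 UMI and those without one, with 0 called by edgeR, 0 at an unadjusted p under 0.05 and 0 by DESeq2. Of all 10359 genes 1.73% were called. Tnfaip3 had the smallest p, with 142, 117 and 146 CPM in the knockout libraries and 122 and 97.7 in the control libraries among Foxp3+ Il1rl1+ cells. Among Foxp3+ Il1rl1- cells it had 116, 125 and 149.7 CPM in the knockout libraries and 99.4 and 72.4 in the control libraries. Its libraries went both ways, 3 of 5 higher (log2 fold change 0.16, SE 0.08, adjusted p = 0.526). Myd88, the adaptor that ST2 uses, was at -0.05 (SE 0.16), and the other log2 fold changes lay between -0.16 for Rela and 0.08 for Rel. Misses of the threshold with SEs of 0.06 to 0.16 do not show that the levels are equal. In the knockout libraries an Il1rl1 UMI need not mark a cell with ST2, since 3' reads need not cover the deleted exons.

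Around these genes, 3 of 14 receptor genes were higher in Il1rl1+ cells and 1 was lower: Tnfrsf4 (0.50), Il18rap (0.47) and Tnfrsf9, the gene of 4-1BB (0.47), against Il1r1, the interleukin-1 receptor (-1.49). Over all genes 1.73% were called in either direction. Of 24 upstream genes 0 passed; Map3k14 had -0.32 (adjusted p = 0.105) and Malt1 0.18 (adjusted p = 0.344). Of 16 further inhibitors 0 passed either, with Otulin, a linear-ubiquitin hydrolase, at -0.21 and Cyld, another deubiquitinase, at -0.15. Of 22 target genes 1 was lower, Irf1, an interferon-response factor (-0.36). Cells with an Il1rl1 UMI were deeper in every library, with median totals of 13566, 8628 and 7542 UMIs in the knockout libraries and 18380 and 6256 in the control libraries, against 8356, 5362 and 4799 in knockout and 14806 and 4669 in control Foxp3+ Il1rl1- cells. Of the markers of other cell types, the tubule gene Kap and the dendritic cell gene Cd209a were higher and the dendritic cell gene Xcr1 lower in the Il1rl1+ cells, and their part in the receptor result was not tested.

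In the comparison of knockout with control libraries no gene of the 10 passed the test in any gate. Over all genes, edgeR called 0 or 1 in each of the 6 comparisons, with 433 to 899 at an unadjusted p under 0.05, and DESeq2 called 13 to 116. By edgeR, 0 were called among Foxp3+ cells, where 0% of 10905 genes were called, and 0 by DESeq2. At an unadjusted p under 0.05 there were 3: Nfkbiz, Tnfaip3 and Relb, the last encoding the main partner of p52. Of the 10905 genes, 527 had such a p. All 10 fold changes were positive, with a median of 0.15 on the log2 scale, against -0.0060 over all genes. In 6 of the 10 (Nfkb1, Nfkb2, Relb, Rel, Nfkbiz and Tnfaip3) every knockout library lay above every control library, where the groups did not overlap, in either direction, for 20.1% of all genes.

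Nfkbiz, with the Foxp3+ values given above, was 1.41 times as high in knockout as in control Foxp3+ cells (log2 fold change 0.50, SE 0.15, adjusted p = 0.803, unadjusted p = 0.00935). Tnfaip3 was 1.40 times as high (log2 fold change 0.48, SE 0.15, adjusted p = 0.861). For both, the lowest knockout library was the second, and it lay above the higher control library. Relb had 104, 112 and 105 CPM in the knockout libraries, against 92.3 and 82.0 in the control libraries (log2 fold change 0.26, SE 0.10, adjusted p = 0.948). Rel had 119.7, 127 and 124 CPM in the knockout libraries, against 101 and 115 in the control libraries (log2 fold change 0.17, SE 0.10, adjusted p = 1.00). Nfkb2 stood at 0.14 (SE 0.11) and Nfkb1 at 0.11 (SE 0.10), with no overlap between the groups for either. Nfkbia overlapped between the groups (log2 fold change 0.08, SE 0.15, adjusted p = 1.00), as did Rela (0.03), Nfkbid (0.17) and Myd88 (0.04).

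When no filter on low counts was applied, Nfkbiz and Tnfaip3 passed in Foxp3+ cells and in Foxp3+ Il1rl1- cells, and 289 and 311 of all genes were then called. The second control library had the lowest Tnfaip3 and Nfkbiz values. Without it the log2 fold changes among Foxp3+ cells were 0.30 for Tnfaip3 and 0.42 for Nfkbiz, and without the first control library they were 0.75 and 0.61. Sequencing depth per cell differed, with median totals of 10867, 5724 and 5118 UMIs in knockout and 15899 and 5035 in control Foxp3+ cells. Digestion genes summed to 712 to 920.0 CPM in knockout and 920.2 and 932 in control Foxp3+ cells, and 4 of the 11 had positive fold changes, among them Dusp1 (0.19), while Jun (-0.87), Atf3 (-1.06) and Hspa1a (-1.26) were below without overlap. Macrophage markers summed to 284 to 398 in knockout and to 229 and 589 in control Foxp3+ cells. Among the macrophage markers 6 of 11 had negative fold changes. No tested marker of another cell type was called. The tested CD8 (2 of 2), dendritic (4 of 4), B cell (3 of 3) and NK cell markers (3 of 3) all had negative fold changes, with Klre1 (-1.26), Ms4a1 (-1.22) and Itgax (-0.48) below without overlap and Cd8a (-1.01) and Cd8b1 (-0.80) overlapping. The part of these markers and of depth in the differences was not tested.

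The Foxp3+ cells were then split by Il1rl1. Among Foxp3+ Il1rl1- cells 0 of the 10 were called by edgeR (0% of 10482 genes) and 0 by DESeq2. Of the 10, 4 had an unadjusted p under 0.05 by edgeR, beside 640 of the 10482 genes. The groups did not overlap for 6, all higher in the knockout, beside 20.6% of all genes. Tnfaip3 had 116, 125 and 149.7 CPM in the knockout libraries, against 99.4 and 72.4 in the control libraries (log2 fold change 0.55, SE 0.16, adjusted p = 0.568). Nfkbiz had 113, 92.5 and 133 CPM in the knockout libraries, against 81.0 and 65.6 in the control libraries (log2 fold change 0.56, SE 0.17, adjusted p = 0.581). The knockout values of both genes were all higher than the control values. In the same cells 3 myeloid markers, none of them called, were lower in the knockout without overlap. Tyrobp had 29.9, 32.7 and 10.7 CPM in the knockout libraries, against 94.8 and 46.1 in the control libraries (log2 fold change -1.52, adjusted p = 0.429 by edgeR). Fcer1g had a log2 fold change of -1.30 and Itgax of -1.60. Not all such markers moved this way: the macrophage marker C1qa had a positive log2 fold change, 0.84. The summed macrophage markers overlapped, at 267.9, 284 and 141 CPM in the knockout libraries and 643 and 232 in the control libraries. Their part in the Nfkbiz and Tnfaip3 differences was not tested. Relb stood at 0.30 and Rel at 0.26, with SEs of 0.12 and 0.11. Among Foxp3+ Il1rl1+ cells 0 were called by edgeR (0.0102% of 9830 genes), 0 by DESeq2 and 0 at an unadjusted p under 0.05. There 5 did not overlap (Nfkb1, Rela, Relb, Nfkbid and Nfkbiz), all higher in the knockout, beside 20.3% of all genes. Nfkbiz had 0.32 (SE 0.17), and Tnfaip3, with overlap, 0.23 (SE 0.16). Nfkb2 (-0.11), Rel (-0.04) and Nfkbia (-0.13) had negative fold changes. Treg markers in these cells summed to 2930.3, 2456 and 2452 CPM in the knockout libraries, against 3673 and 3379 in the control libraries. The 10 tested macrophage markers all had positive fold changes there, none of them called, and the part of both lists was not tested.

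In Foxp3- Cd4+ cells no transcript of the Cre driver gene was sampled. Of the 10, 0 were called there by edgeR (0% of 13475 genes) and 0 by DESeq2. An unadjusted p under 0.05 by edgeR was found for 727 of the 13475 genes and for 1 of the 10. This was Tnfaip3, with 109, 94.0 and 105 CPM in the knockout libraries, against 88.1 and 69.7 in the control libraries (log2 fold change 0.36, SE 0.12, adjusted p = 0.879). In the same cells Il2ra, Ikzf2, Ctla4 and Tnfrsf18 together had 429.9, 433 and 449.7 CPM in the knockout libraries, against 333 and 330.1 in the control libraries, also without overlap. Their part in the Tnfaip3 difference was not tested. The groups did not overlap for Tnfaip3, nor did those of Relb and Nfkb2, 3 of 10 beside 19.3% of all genes. Nfkbiz was at 0.28 (SE 0.15) with overlap. In the macrophage gate 0 were called by edgeR (0% of 12005 genes), 0 by DESeq2 and 0 at an unadjusted p under 0.05, and Nfkbia and Nfkbiz did not overlap, 2 of 10 beside 17.8% of all genes. Over all retained cells 0 were called by edgeR (0% of 15245 genes) and 0 by DESeq2, and Tnfaip3 had 0.33 (SE 0.13, unadjusted p = 0.0491).

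**Figure D4:**
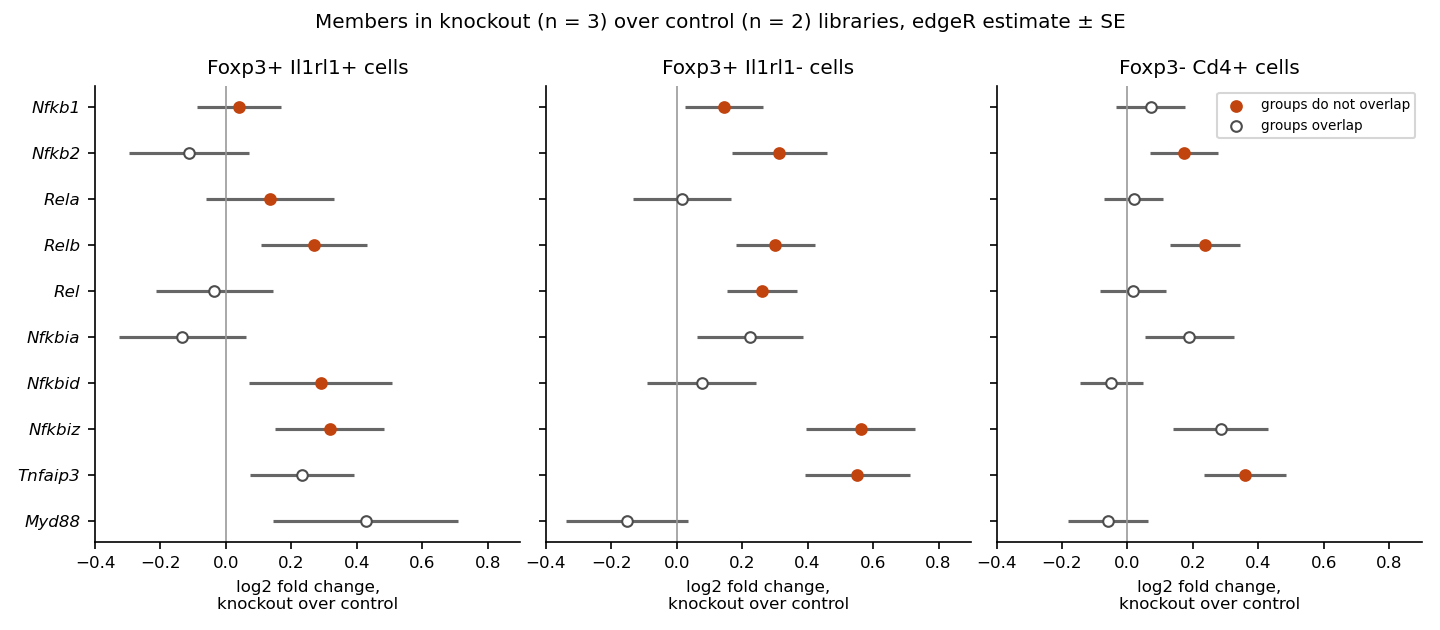
Log2 fold change of knockout over control libraries (horizontal axis, edgeR estimate with bars of 1 SE) for each gene in 3 cell gates, filled where the 3 knockout and 2 control libraries do not overlap. Nfkbiz and Tnfaip3 stand farthest to the right in Foxp3+ Il1rl1- cells, at 0.56 and 0.55, and none of the 30 estimates passed the adjusted threshold.

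None of the other pathway genes tested passed this comparison in Foxp3+ or Foxp3- Cd4+ cells either. The list medians in Foxp3+ cells lay at 0.095 for receptors, 0.10 for upstream genes, 0.11 for further inhibitors and 0.10 for targets, and 20 of the 24 upstream genes had a positive fold change. Among Foxp3+ cells the smallest p-values belonged to Il18r1, an interleukin-18 receptor chain (1.00, adjusted p = 0.747), and Cd27 (-0.47) among 16 receptors, and to Traf3, an adaptor that restrains the non-canonical arm (0.28), and the kinase gene Ripk1 (0.24) among 24 upstream genes. Irak3, an inhibitory kinase relative (-0.62), and Cyld (0.18) led the 16 further inhibitors. Among 22 targets these were Stat5a (-0.45) and the chemokine gene Ccl3, which had 4.25, 3.76 and 6.95 CPM in the knockout libraries, against 0.254 and 0.532 in the control libraries (adjusted p = 0.526 by edgeR). The control levels stand for 4 and 2 UMIs, so no fold is given. In Foxp3- Cd4+ cells Tnfrsf9 had 1.32 (adjusted p = 0.423) and Il2ra 1.05 (adjusted p = 0.879).

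Whether the gate differences depended on genotype was tested directly by the interaction term. For Foxp3+ over Foxp3- Cd4+ cells 0 of the 10 passed edgeR (0.0372% of 13441 genes) and 0 passed DESeq2. An unadjusted p under 0.05 by edgeR was found for 628 of the 13441 genes and for 1 of the 10. That was Nfkbiz, whose gate difference was larger in the knockout by 0.24 on the log2 scale (SE 0.08, unadjusted p = 0.0185, adjusted p = 1.00). Nfkbia was at -0.09 (SE 0.08) and Tnfaip3 at 0.14 (SE 0.09). For the Il1rl1 split 0 passed edgeR (0.454% of 10359 genes) and 0 passed DESeq2. An unadjusted p under 0.05 by edgeR was found for 777 of the 10359 genes and for 1 of the 10. The 1 was Nfkbia, at -0.34 (SE 0.15, adjusted p = 0.617). Nfkb2 stood at -0.43 (SE 0.21). Of the target genes, Il2ra passed this second interaction, with a gate difference smaller in the knockout (log2 difference -0.73, SE 0.15, adjusted p = 0.0446). It missed the threshold when any 1 library was left out (adjusted p between 0.052 and 0.211) and was 0.14 in cells thinned to 2000 UMIs.

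The macrophage gate is a mixed set, since 92.6%, 96.9% and 95.1% of its cells in the knockout libraries and 94.5% and 91.7% in the control libraries also held a UMI of Cd3e, Cd3d, Cd3g or Trac, genes of the T cell receptor complex. The 8 macrophage markers that the gate did not use were each higher than in Foxp3- Cd4+ cells in 5 of 5 libraries, with log2 fold changes by edgeR between 2.33 for Lyz2 and 5.32 for Apoe. Its cells were also deeper than T cells, with medians of 11903 to 15938 UMIs in knockout and 7664 and 19608 in control libraries, and 8 of 11 digestion genes were higher; the part of both was not tested. Taken whole, the gate differed from Foxp3- Cd4+ cells in 7 of the 10 genes, 4 higher and 3 lower, by edgeR, where 21.6% of 13405 genes were higher and 17.2% lower. Nfkbiz was highest above the T cells (log2 fold change 0.47, SE 0.05, adjusted p = 1.4e-04), followed by Myd88 (0.22), Rel (0.17) and Rela (0.11). Nfkb2 (-0.26), Tnfaip3 (-0.21) and Nfkbia (-0.11) were lower. The differences in Rela, Nfkbia and Rel were at most 0.17 on the log2 scale. Without the third knockout library Nfkbiz, Nfkb2 and Tnfaip3 passed and Rela (adjusted p = 0.152), Rel (0.069), Nfkbia (0.074) and Myd88 (0.067) did not. Rela also missed the threshold without the first (0.088) or second (0.111) knockout library or the second control library (0.066), and Nfkbia without the first knockout library (0.116) or the second control library (0.111).

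A set of 26, 26 and 24 cells of this gate in the knockout libraries and 32 and 62 in the control libraries lacked such a T cell UMI, with median totals of 1875 to 3142 UMIs. Their macrophage markers, the gate genes included, summed to 16172 to 18644 CPM. The comparison group was Foxp3- Cd4+ cells with a T cell UMI and none of C1qa, C1qb, C1qc, Lyz2, Cd79a or Cd79b, whose median totals of 4254 to 13428 UMIs were higher. Of the 10 genes 5 were called lower in the macrophage cells and 0 higher, where 14.7% of 11879 genes were lower and 12.3% higher by edgeR and the median of all genes was -0.31. Nfkbia had 46 UMIs in these 170 cells, or 81.7 CPM (95% exact Poisson interval 59.8 to 109, counting error only), against 309 in the T cells (log2 fold change -2.00, SE 0.26, adjusted p = 3.9e-13). It was lower in 5 of 5 libraries. Tnfaip3 had 11 UMIs, or 19.5 CPM (interval 9.75 to 35.0), against 92.1 (log2 fold change -2.17, SE 0.41, adjusted p = 1.9e-06).

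Nfkb1 was also lower in these cells (log2 fold change -0.67, SE 0.21, adjusted p = 0.00818), with 141 UMIs, and so was Relb (log2 fold change -1.11, SE 0.34, adjusted p = 0.00620), with 24. The fifth, Nfkbid, had 5 UMIs in these cells and 0 in 2 of the 5 libraries, or 8.88 CPM (interval 2.88 to 20.7), against 34.4 CPM from 5724 UMIs in the T cells. Nfkbiz, which led the whole gate, was at 0.21 (SE 0.31) and no longer passed. Rela changed sign, to -0.73 (SE 0.43), and did not pass. Doublets were not removed by a caller. In the whole gate the smallest p-values among the pathway genes that were higher belonged to Tnfrsf11a (RANK, 3.61), Tlr7 (2.72) and Tlr4 (2.39) among receptors, Irak2 (0.59), Card9 (1.96) and Tirap (1.09) upstream, Tnip2 (0.67), Irak3 (0.85) and Tnip3 (0.78) among inhibitors, and Plau (4.13), Cd83 (1.43) and Vcam1 (3.40) among targets. Tlr4 and Tlr7 encode receptors for microbial products, and Tirap an adaptor that links such receptors to MyD88. Lower in the whole gate were the T cell co-stimulatory receptor gene Cd28 (-0.33) and the interleukin-18 receptor genes Il18rap (-0.45) and Il18r1 (-0.34). So were the kinase genes Prkcq (-0.19) and Chuk (-0.17) with Traf2 (-0.23), and the inhibitors Cyld (-0.24), Otud7b (-0.26) and Tax1bp1 (-0.14). The targets Ccl5 (-0.31), Traf1 (-0.19) and Irf1 (-0.24) were lower too. Of 19 receptors 10 were higher and 3 lower, of 25 upstream genes 6 and 8, of 16 further inhibitors 5 and 3, and of 27 targets 14 and 4. Beside these, 21.6% of all genes were higher and 17.2% lower. Among the cells without a T cell UMI, Chuk and Tax1bp1 did not pass (adjusted p = 0.124 and 0.217 by edgeR). The other genes named as lower passed there, with Cd28 at -3.34.

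**Figure D5:**
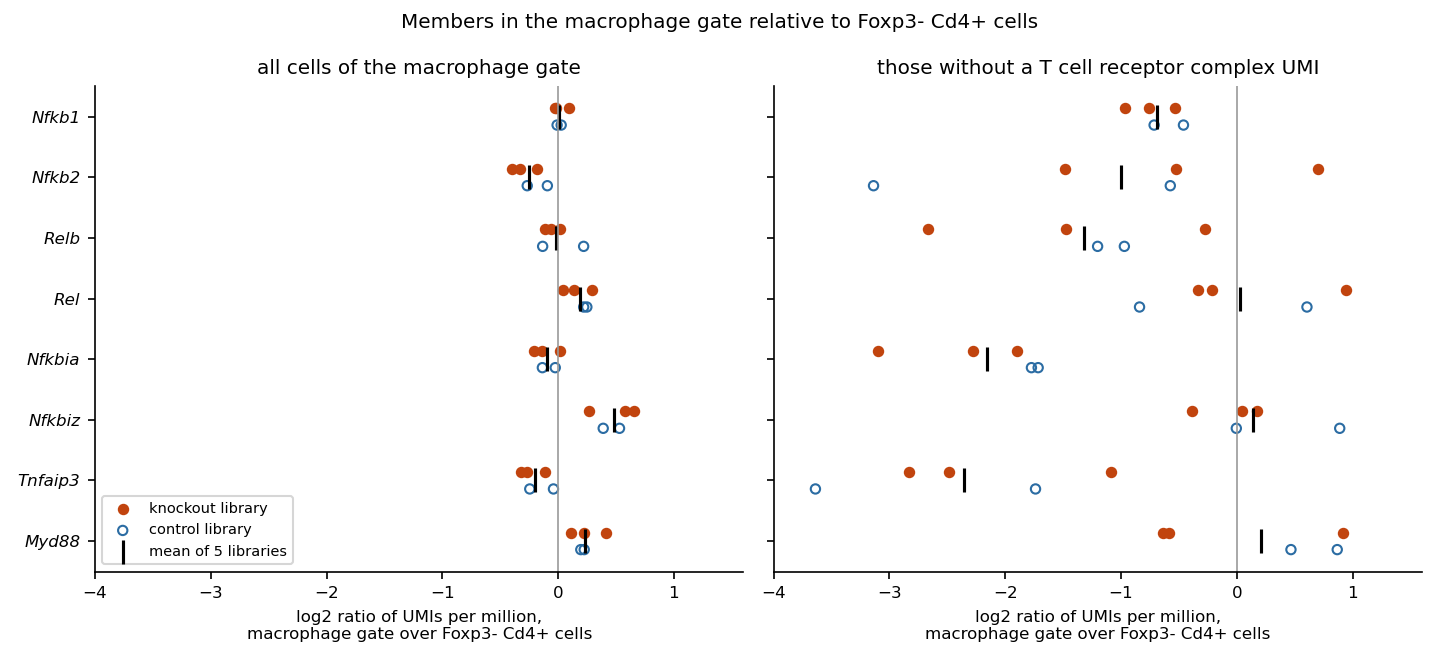
Log2 ratio of CPM in the macrophage gate over Foxp3- Cd4+ cells of the same library (horizontal axis) for 8 of the 10 genes, with all cells of the gate on the left and cells without a T cell receptor complex UMI on the right (1 point per library; filled, knockout; open, control; bar, mean). Nfkbia and Tnfaip3 lie near 0 on the left and below -1 in all 5 libraries on the right, where the T cells without other lineages are the denominator. Rela and Nfkbid are left out because at least 1 library had 0 UMIs.

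Likeness of pattern was measured as the Pearson correlation of log2 CPM over 15 sums (the Foxp3+ Il1rl1+, Foxp3+ Il1rl1- and Foxp3- Cd4+ gates of 5 libraries). The candidates were 6405 genes of at least 20 CPM on average. They left out the 10 genes themselves, antigen receptor segments, ribosomal protein genes, mitochondrial genes and gene models without a name. The 10 genes were compared with each other apart from these. The sums of a library share its depth and preparation, and the values are a description of these sums. Nearest to Nfkb1 were Tasp1 (r = 0.965), Samsn1 (0.916) and Rnf216 (0.911). Nfkbia was most like Bclaf3 (0.908), Ctdnep1 (0.901) and Herpud1 (0.894). Tnfaip3 was most like Ptp4a2 (0.928), Herc4 (0.895) and Areg (0.891), the last encoding the repair factor amphiregulin. Nfkbiz had Ppp4r1 (0.840), Socs1 (0.839) and Ergic2 (0.826). Traf2, a signalling adaptor of the pathway, stood first for Nfkb2 (0.861) and among the nearest 3 for Rel (0.867). The closest to Rela was Ralgps2 (0.848), to Relb Tor1aip1 (0.904), to Nfkbid Polr2d (0.828) and to Myd88 Tmem189 (0.859). Among the 10 genes the highest value was 0.898 between Nfkbiz and Tnfaip3, followed by 0.838 between Nfkb1 and Nfkbiz and 0.795 between Nfkb1 and Nfkbia. Myd88 and Rel had the lowest, -0.525. Across single cells within a library the Nfkbiz and Tnfaip3 pair had a median r of 0.052 in Foxp3+ cells and 0.056 in Foxp3- Cd4+ cells, in sparse counts.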

How the data were processed

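Single-cell 3' libraries of sorted CD4 T cells were counted with Cell Ranger 8.0 against mm10 and handled in Seurat 5.1.0, per the submitters' processing notes. The matrices were deposited by the authors as unnormalized UMI counts of each gene in each cell, with Cell Ranger 8.0.0 named in the file headers. Here, cells with at least 500 genes and under 10% mitochondrial UMIs were kept: 1906 of the 40778 cells had fewer genes and 1133 more mitochondrial UMIs, and 38417 cells stayed. The 40778 deposited barcodes match the cell numbers in the study's design text. Doublets were not removed by a caller. UMIs were summed per library and gate and tested with edgeR 4.0.16 (quasi-likelihood test, TMM factors, filterByExpr, R 4.3.3), with Benjamini-Hochberg adjustment over all genes tested and a threshold of 0.05; comparisons between gates had the library as a term. DESeq2 1.42.0, RLE factors, no filter on low counts, other cell filters, thinning to 2000 UMIs per cell (seed 1), stricter gates, leaving out each library and the replicate block were alternatives. Thinning left out cells with under 2000 UMIs, and its macrophage gate took cells with at least 1 complement UMI in place of 5. The scripts were tested on simulated data. Gene positions came from GENCODE M21 (30934 of 31053 IDs matched) and promoter windows from RefSeq. Other pathway genes are named by rule: the 3 smallest p-values per list and direction among genes past the threshold that moved the same way in every library, or the 2 smallest where none passed. The 10 genes, the lists and the tests were chosen with earlier results of these data known. Levels depend on depth, which was 31104939 to 152275841 UMIs per library, and intervals cover counting error only. Replicate numbers of the labels are shared by 2 pairs of libraries. Figures were drawn with matplotlib 3.10.9.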

Additional observations from a re-analysis of the deposited data

Results flagged for a closer look

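Il2ra, the interleukin-2 receptor alpha chain gene, differed between genotypes in how its level in Foxp3+ Il1rl1+ cells compared with Foxp3+ Il1rl1- cells (log2 difference -0.73, SE 0.15, edgeR adjusted p = 0.045). The plain log2 ratios were -0.19, 0.15 and 0.33 in the knockout libraries and 0.75 and 0.81 in the control libraries, higher in Il1rl1+ cells in 4 of 5 libraries.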

How the results depend on the processing

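Without a filter on low counts, 2 genes of the 10 (Nfkbiz and Tnfaip3) passed for knockout against control in Foxp3+ cells and 2 in Foxp3+ Il1rl1- cells, against 0 with the filter; the cause was not tested. Leaving out each library gave 0 to 0 calls in the 6 knockout comparisons, 4 to 4 for Foxp3+ against Foxp3- Cd4+ cells and 3 to 7 for the macrophage gate. In the control libraries alone 2 passed for Foxp3+ against Foxp3- Cd4+ cells. For the macrophage gate 3 passed after thinning, where the gate took cells with at least 1 complement UMI in place of 5. In the unthinned gate 1 passed in control libraries alone and 4 in knockout libraries alone, and these 2 fits have fewer libraries. These counts of the 10 genes stand without the share of all genes in the same setting. They do not show whether the 10 moved differently from other genes. With mixed cells left out, Rela in the macrophage gate was -0.73 against 0.11. The Il2ra difference was 0.14 after thinning, against -0.73. Of the log2 fold changes recomputed, 2872 kept their direction and side of the threshold, 91 lost it, 35 gained it, 119 moved and 2 reversed.

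Counts over all genes moved more. Without the filter edgeR called 289, 203, 311, 447, 145 and 6 genes for knockout against control (Foxp3+, Foxp3+ Il1rl1+, Foxp3+ Il1rl1-, Foxp3- Cd4+, macrophage gate, all cells), and DESeq2 called 19, 13, 18, 60, 21 and 116. The other comparisons ranged over 952 to 2830 (Foxp3+ against Foxp3- Cd4+), 49 to 511 (Il1rl1 split), 1303 to 5848 (macrophage gate) and 0 to 166 and 0 to 185 (interactions).

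With the replicate number as a block, 0 of the 10 genes passed in each of the 6 knockout comparisons, and 0, 0, 2, 1, 0 and 0 of all genes. For each gene the deviation of a library from its group mean was taken, and these were correlated between same-numbered libraries. The values were -0.05 and -0.10 in Foxp3+ cells, 0.18 and -0.14 in Foxp3- Cd4+ cells and -0.13 and -0.31 in the macrophage gate. With 2 control libraries the deviations of 1 mirror those of the other, so these values cannot show whether the numbers pair. Nothing in the labels says that a number marks a shared animal or day. After thinning, 3 of the 10 genes were abundant enough to be tested for knockout against control in Foxp3+ Il1rl1+ cells. The 170 macrophage cells without T cell UMIs held 563094 UMIs in all.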
